A study of Mus musculus with 55 samples.

Results

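The genes described here encode collagens, laminins, nidogens, integrins and matrix glycoproteins such as fibronectin, fibulins, thrombospondins, tenascin C and the Fraser complex proteins. They were chosen by symbol from both deposited RNA tables, and 103 genes matched, of 51912 genes listed in the larger table. The table of PRMK and PRM tumour cells listed 85 of them among its 15479 genes. The other 18, among them Lamb1, Itga6, Col6a1 and Nid2, were not analysed there.

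The samples came from a mouse model of small cell lung cancer made by editing lung organoids and injecting them into the left lung lobe of recipient mice. PRM cells carried guides against Trp53 and Rb1 and a vector expressing Myc with luciferase, and PRMK cells were made with an added guide against Kmt2c, an H3K4 methyltransferase. The sgMeis2 and sgScramble cells were PRMK cells with a further guide, against Meis2 or scrambled, so all 4 groups share the lesions in Trp53 and Rb1 and the Myc vector. Each guide plasmid also carried mCherry and puromycin resistance, and cells for RNA were harvested from the recipients as organoids. RNA was measured in 12 libraries, 3 per group, with 12013253 to 24389041 counts per library. Peak lists came from 26 libraries, 2 per group, for open chromatin (ATAC) and, by the antibody-directed CUT&Tag assay, for H3K4me1, H3K4me2, H3K4me3 and KMT2C. All 5 assays covered lung PRM and lung PRMK, and ATAC, H3K4me1 and KMT2C also covered PRM cells from liver.

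Several points in the labels limit these groups. The labels do not say whether libraries of a group came from separate animals, so p-values measure the spread between these samples, which may be technical. The plasmids listed for the PRMK RNA samples include no guide against Kmt2c. The PRM columns of the RNA table are numbered 4 to 6 and the sample titles 3 to 5, so these columns were tied to the group and not to single samples. The descriptions of the PRMK RNA samples name another table than the one used here, whose column names match their titles. A stranded library kit is named for the PRM RNA samples only, so library preparation and genotype cannot be told apart. In the PRMK peak data for H3K4me2, H3K4me3 and KMT2C, the plasmids of replicate 1 include a Meis2 guide, and those of replicate 2 a scrambled one. Levels below are CPM, the counts of a gene relative to its library's total scaled by TMM, a normalization between libraries. They are compared between libraries of a gene and are not scaled to gene length.

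The extracellular matrix falls into a few structural systems. Fibrillar collagens form the tension-bearing fibres of connective tissue and are made mainly by fibroblasts. Collagen IV, laminins and nidogens assemble into basement membranes, the sheets under epithelia, and the Fraser complex links epithelial basement membranes to the tissue below during development. Integrins are paired alpha and beta receptors that bind these proteins, and leukocytes use a beta2 set of their own. In small cell lung cancer, adhesion to laminin and fibronectin through beta1 integrins has been studied as a factor in survival under chemotherapy.

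Promoter sequences of 6 members whose values follow are shown first, because promoters with and without the mark H3K4me3 differed in CpG content. H3K4me3 marks active or poised gene starts, and was read from peaks within 1 kb of the start. The sequences are the 250 bases before the annotated start, chosen because they lie outside every annotated gene, from RefSeq (GRCm38.p6), written 5′ to 3′ on the strand of the gene with CG dinucleotides in capitals. Thbs3 (chr3:89214930-89215179, plus), Col9a2 (chr4:121039316-121039565, plus) and Itgb1 (chr8:128685404-128685653, plus) had H3K4me3 in all 4 lung lists. Svep1 (chr4:58206597-58206846, minus), Sparc (chr11:55420081-55420330, minus) and Col3a1 (chr1:45311288-45311537, plus) had it in none.
Thbs3: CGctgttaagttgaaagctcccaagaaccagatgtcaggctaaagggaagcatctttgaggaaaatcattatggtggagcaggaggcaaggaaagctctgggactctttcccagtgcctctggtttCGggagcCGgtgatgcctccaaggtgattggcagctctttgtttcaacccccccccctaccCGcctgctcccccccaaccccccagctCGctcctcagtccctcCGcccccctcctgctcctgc
Col9a2: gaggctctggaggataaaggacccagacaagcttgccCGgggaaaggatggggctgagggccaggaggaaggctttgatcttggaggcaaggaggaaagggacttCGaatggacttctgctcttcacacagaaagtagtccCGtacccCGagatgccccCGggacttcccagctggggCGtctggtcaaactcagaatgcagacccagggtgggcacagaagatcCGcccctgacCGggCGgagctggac
Itgb1: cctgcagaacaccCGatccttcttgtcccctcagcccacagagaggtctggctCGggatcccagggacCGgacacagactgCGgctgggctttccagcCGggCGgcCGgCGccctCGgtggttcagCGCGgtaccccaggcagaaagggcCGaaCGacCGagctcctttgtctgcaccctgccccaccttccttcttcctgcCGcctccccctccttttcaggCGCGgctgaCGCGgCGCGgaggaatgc
Svep1: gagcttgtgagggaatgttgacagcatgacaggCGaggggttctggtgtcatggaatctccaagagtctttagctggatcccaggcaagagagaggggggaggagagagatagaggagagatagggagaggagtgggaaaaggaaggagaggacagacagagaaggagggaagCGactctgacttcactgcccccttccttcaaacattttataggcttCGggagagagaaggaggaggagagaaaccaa
Sparc: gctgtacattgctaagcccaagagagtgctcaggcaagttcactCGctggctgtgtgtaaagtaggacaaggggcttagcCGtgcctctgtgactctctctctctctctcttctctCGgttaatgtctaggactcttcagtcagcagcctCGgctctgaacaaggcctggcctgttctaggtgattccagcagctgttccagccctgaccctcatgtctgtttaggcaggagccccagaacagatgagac
Col3a1: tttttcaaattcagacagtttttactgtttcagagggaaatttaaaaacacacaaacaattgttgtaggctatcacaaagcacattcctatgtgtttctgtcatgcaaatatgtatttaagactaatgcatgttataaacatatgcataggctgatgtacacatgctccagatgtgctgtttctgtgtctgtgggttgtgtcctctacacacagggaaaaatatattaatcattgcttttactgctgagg

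These 6 windows held 6, 9, 21, 3, 4 and 0 CG dinucleotides in that order. Over members with H3K4me3 in all 4 lists the median was 12 per window, over members with it in none 5, and over 10956 tested genes 16. The motif TATAAA, searched on both strands, was present in the Svep1 and Col3a1 windows. It was in 0 of 17 members with H3K4me3 in all 4 lists, 13.2% of the 38 with it in none, 6.25% of tested genes and 13% of all 27018 promoters. GGGCGG on either strand was in the windows of Thbs3, Col9a2 and Itgb1, and in 50.0% of the members, 59.3% of tested genes and 32.9% of all promoters. A match is a description of the sequence only.

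Targeted genes were checked first. In PRMK libraries 1 to 3, Kmt2c stood at 85.1, 84.4 and 105 CPM. PRM libraries 4 to 6 held 113, 187 and 67.6 CPM, which overlapped the PRMK range. Meis2 stood at 219, 224 and 137 CPM in sgMeis2 and at 259, 227 and 233 CPM in sgScramble, with no overlap. A guide need not lower the RNA of its target, so these levels do not test the edits.

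PRM libraries differed from each other more than PRMK libraries did, and the gap was wider over matrix genes than over all genes. Over the 76 members that passed the filter on low counts, the median ratio of highest to lowest library, computed on CPM plus 0.5, was 8.87-fold within PRM and 1.89-fold within PRMK. Over all 13914 genes tested the same medians were 2.21-fold and 1.31-fold. The ratio passed 10-fold within PRM for 34 members (44.7%) and for 11.7% of all genes, and within PRMK for 0 members and 0.561% of all genes. PRM library 6 was the highest of the 6 libraries for 32 members (42.1%), against 24.6% of all genes. PRM library 5 was the lowest for 44 members (57.9%), against 26.6% of all genes. It held no count at all for 13 of the 85 listed members, and held a count for 14599 of all 15479 listed genes.

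These 2 libraries also stood apart in cell type markers. The summed level of 8 neuroendocrine markers was 113 CPM in PRM library 6, against 2980 to 5670 CPM in the other 5 libraries. The library labelled PRM 6 thus showed little of the neuroendocrine RNA that marks small cell lung cancer. Its 5 epithelial markers summed to 2930 CPM, against 160 and 50.3 CPM in PRM libraries 4 and 5 and 541 to 3010 CPM in PRMK. In PRM library 5, 6 macrophage and leukocyte markers summed to 6.05 CPM, against 93.1 to 701 CPM elsewhere. Its 9 fibroblast markers summed to 6.45 CPM with 4 of them at no count, against 84.8 to 262 CPM elsewhere. The part of these markers in the results below was not tested, and in bulk samples fewer cells of a type and less RNA per cell cannot be told apart.

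**Figure D1:**
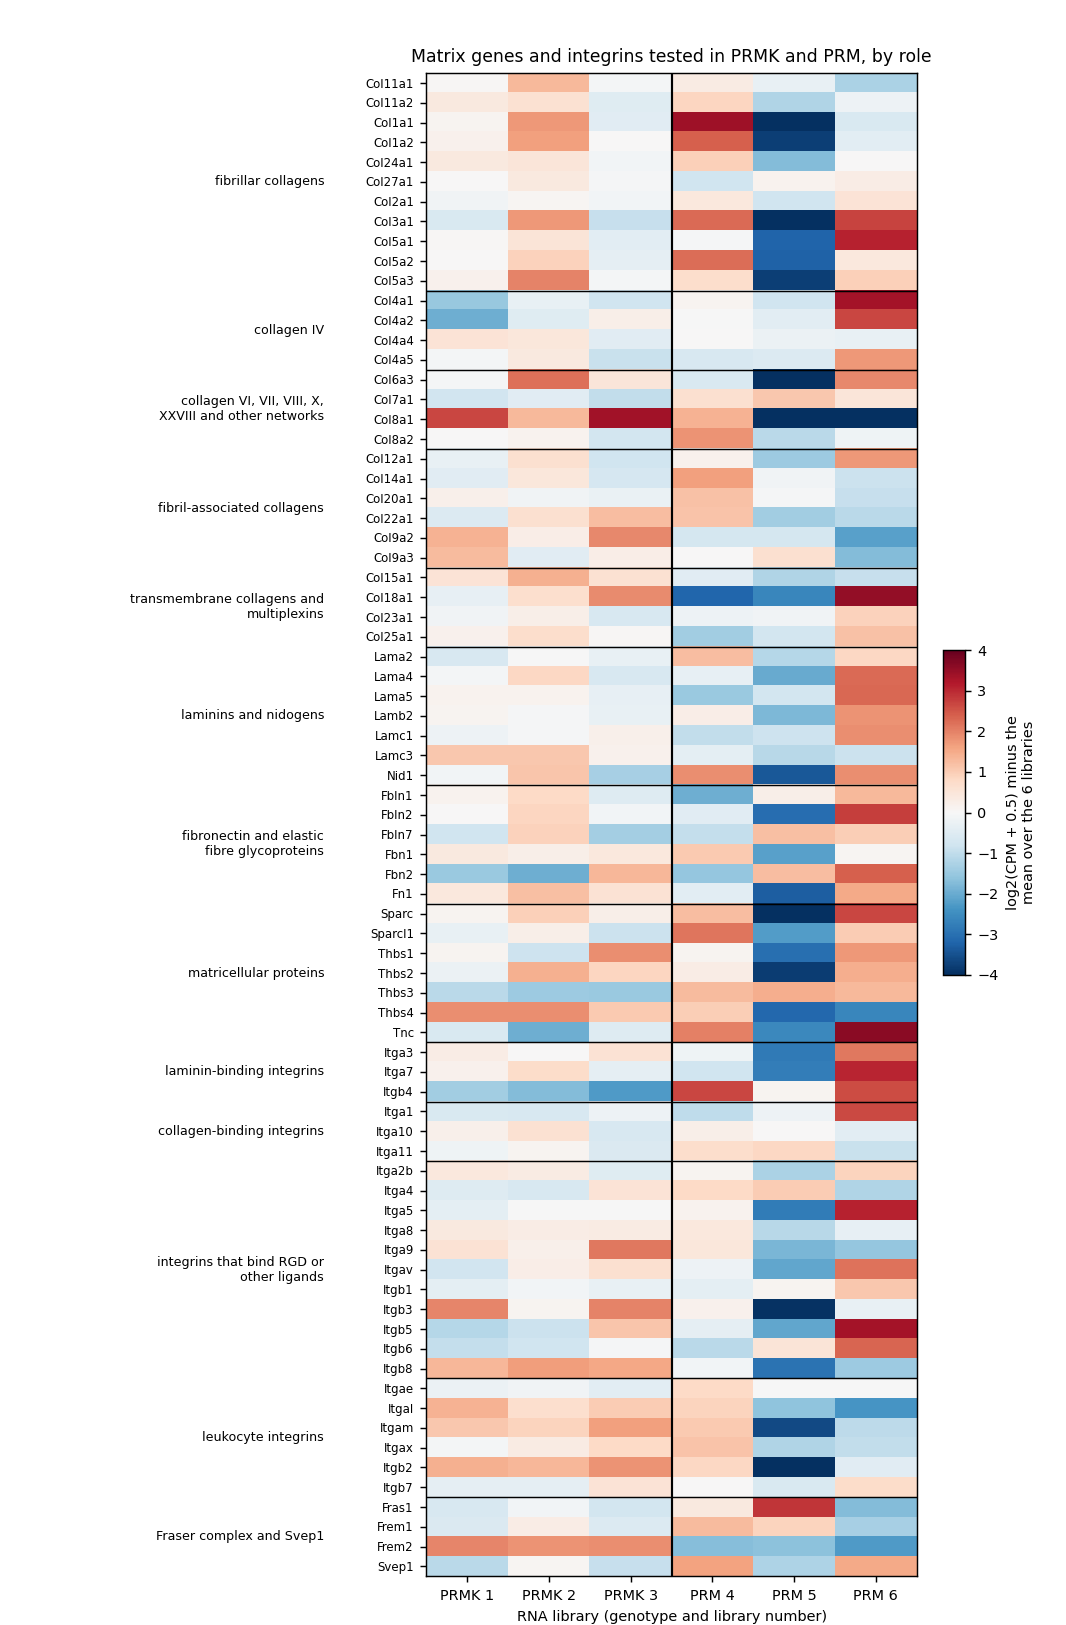
Level of the 76 tested members (rows, grouped by role) in each RNA library (columns), as log2(CPM + 0.5) minus the gene's mean over the 6 libraries, with values beyond 4 shown in the end colours. The PRMK columns are pale for most genes, PRM 5 is blue for 44 members at their lowest, and PRM 6 is red for 32 members at their highest.

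PRMK was then compared with PRM, the contrast that bears on Kmt2c. The edgeR quasi-likelihood test called 0 of the 76 tested members at a Benjamini-Hochberg adjusted p under 0.05, and 0% of all genes. At an unadjusted p under 0.05 it held 9 members (11.8%), 5 higher and 4 lower in PRMK, against 17.1% of all genes. DESeq2 called 6 members (7.89%), 3 higher and 3 lower, against 8.75% of all genes (3.90% higher, 4.86% lower). The edgeR likelihood ratio test called 4 members, 2 in each direction, against 3.26% of all genes (1.80% higher, 1.47% lower). The groups did not overlap for 11 members (14.5%), 7 higher and 4 lower, against 29.7% of all genes (15.1% and 14.6%). Under these rules the members' shares thus lay near or below those of all genes, except under the likelihood ratio test (5.26%). The authors' deposited table gives an adjusted p under 0.05 for 8 of its 85 members and 993 of its 15479 genes. There too the share was larger for members than for all genes. The 8 were the 6 that DESeq2 called here, Lamc3 and Lamb3.

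The clearest separation was in the Fraser complex. Frem2 encodes a large protein that anchors epithelial basement membranes and lies on the minus strand at chr3:53513938-53658593 of GRCm38. Its levels were 27.1, 24.01 and 25.6 CPM in PRMK (libraries 1 to 3), against 1.67, 1.79 and 0.979 CPM in PRM (libraries 4 to 6). Every PRMK library was thus far above every PRM library, and libraries within a group lay close together. Frem2 had a log2 fold change of 4.09 (SE 0.398), an edgeR adjusted p of 0.158 and a DESeq2 adjusted p of 1.8e-29. Without PRM library 4 the edgeR adjusted p was 0.0384, and without PRM library 6 it was 0.0680. The fit without PRM library 4 called 5.59% of all genes, and no fit with another library left out called any gene. It keeps PRM libraries 5 and 6, which stood apart in cell type markers.

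The partners of Frem2 did not follow it. Fras1, which forms the complex with the Frem proteins, stood at 29.2, 41.7 and 26.9 CPM in PRMK and at 59.3, 331 and 13.4 CPM in PRM, so its highest and lowest libraries were both PRM. Frem1 was at 0.483, 1.31 and 0.515 CPM in PRMK and 3.03, 2.24 and 0.0890 CPM in PRM, again overlapping. Svep1, a large secreted adhesion protein grouped here with the complex, was at 0.241, 1.15 and 0.317 CPM in PRMK and 4.29, 0.168 and 4.01 CPM in PRM. Of these 4 genes Frem2 alone had a log2 fold change above 0, with all libraries and also without PRM library 6.

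Thbs3 showed the opposite separation. It encodes a thrombospondin, a pentameric calcium-binding glycoprotein of cartilage and other tissues, at chr3:89215180-89226841. Its level was 3.38, 2.45 and 2.38 CPM in PRMK and 19.1, 21.5 and 19.3 CPM in PRM, and the libraries of each group lay close together. Thbs3 had a log2 fold change of -2.87 (SE 0.353), an edgeR adjusted p of 0.158 and a DESeq2 adjusted p of 3.7e-19. Without PRM library 4 the edgeR adjusted p was 0.0388.

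The other thrombospondins and matricellular proteins varied within groups. Thbs4 was at 176, 177 and 99.8 CPM in PRMK and at 94.8, 5.04 and 7.48 CPM in PRM, without overlap, and its log2 fold change of 2.07 had an edgeR adjusted p of 0.392. Without PRM library 4, the PRM library nearest to PRMK, that change was 4.54, with an adjusted p of 0.0384. Tenascin C, an anti-adhesive hexamer encoded by Tnc, was at 1.69, 0.365 and 1.82 CPM in PRMK and at 13.02, 0.0561 and 40.3 CPM in PRM. Thus PRM held both its highest and its lowest library. Sparc, a collagen-binding matricellular protein, was at 26.8 to 48.2 CPM in PRMK and at 58.2, 0.168 and 161 CPM in PRM. Of the 7 tested genes of this role 3 had a log2 fold change above 0, and the median was -1.07.

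Among laminin-binding integrins, Itgb4 stood apart by group. It encodes integrin beta4, the receptor subunit of hemidesmosomes in stratified epithelia, at chr11:115974725-116008412. PRMK held 2.17, 1.62 and 0.951 CPM, and PRM held 44.2, 6.95 and 41.8 CPM. No PRMK library reached a PRM library, although PRM library 5 was well under the other two. Itgb4 had a log2 fold change of -4.29 (SE 0.823), an edgeR adjusted p of 0.190 and a DESeq2 adjusted p of 4.4e-06. The alpha subunits Itga3 and Itga7 were both highest in PRM library 6, at 482 and 27.9 CPM, and lowest in PRM library 5, at 15.2 and 0 CPM. Their PRMK levels of 112 to 167 CPM and 2.18 to 5.22 CPM lay between.

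Several basement membrane genes were far higher in PRM library 6 than elsewhere. Col4a1, which encodes a chain of the common collagen IV network, was at 10.6, 25.7 and 17.8 CPM in PRMK and at 33.7, 17.9 and 320 CPM in PRM. Its partner Col4a2 was at 6.84, 20.1 and 33.0 CPM in PRMK and at 27.8, 20.9 and 182 CPM in PRM. Both genes lie head to head on chromosome 8, with annotated starts 21 bases apart. The Col4a1 log2 fold change was -2.78 with all libraries (edgeR adjusted p = 0.290) and -0.51 without PRM library 6 (adjusted p = 0.558). For Col4a2 these changes were -1.94 and -0.28. The minor chains Col4a4 and Col4a5 were at 0.277 to 1.05 CPM and 1.86 to 13.8 CPM over the 6 libraries, with overlapping groups.

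Some laminins did the same. Lama5, the alpha chain of the laminins of adult epithelial and vascular basement membranes, was at 130, 130 and 94.7 CPM in PRMK and at 41.7, 70.7 and 582 CPM in PRM. Lamc1, the gamma chain shared by most laminins, was at 122, 137 and 163 CPM in PRMK and at 70.4, 78.9 and 510 CPM in PRM. PRMK thus lay above PRM libraries 4 and 5 and below PRM library 6 for both genes. The Lama5 log2 fold change went from -0.97 to 1.07 (edgeR adjusted p = 0.164) without PRM library 6, and that of Lamc1 from -0.64 to 0.92 (adjusted p = 0.133). Lama4, an endothelial and mesenchymal alpha chain, was at 3.53 to 10.6 CPM in PRMK and at 4.50, 1.07 and 29.6 CPM in PRM. Lamb2 was at 15.3 to 20.5 CPM in PRMK and at 23.1, 5.10 and 67.3 CPM in PRM.

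Lamc3, a gamma chain of restricted expression, was the tested laminin of lowest p. It was at 1.77, 1.78 and 0.713 CPM in PRMK and at 0.314, 0 and 0.0890 CPM in PRM, so groups did not overlap, although PRM levels rest on few counts. Its log2 fold change was 3.30 (SE 1.13), with an edgeR adjusted p of 0.239 and a DESeq2 adjusted p of 0.0842. Lama2 reached at most 2.09 CPM. Lamb3, under the filter on low counts and so not tested, was at 0.281 to 0.470 CPM in PRMK. In PRM libraries 4 to 6 it was at 0.261, 3.64 and 23.1 CPM. Nid1, which encodes a nidogen that bridges laminin and collagen IV, was at 36.0, 83.3 and 14.9 CPM in PRMK and at 139, 3.25 and 141 CPM in PRM. The nidogen range within PRM thus enclosed every PRMK library. Of the 7 tested laminins and nidogens, 1 had a log2 fold change above 0 with all libraries and 5 without PRM library 6.

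Several collagens of other classes separated the groups. Col15a1, a basement membrane collagen that gives rise to restin, was at 10.0, 18.9 and 10.5 CPM in PRMK and at 4.81, 2.63 and 3.29 CPM in PRM. Col9a2, a chain of the collagen IX of cartilage fibrils, was at 22.4, 10.0 and 32.7 CPM in PRMK and at 4.86, 4.82 and 1.42 CPM in PRM. Col7a1, the anchoring fibril collagen of skin, was at 2.98, 3.76 and 2.46 CPM in PRMK and at 8.52, 11.8 and 7.75 CPM in PRM. In all 3 genes the groups were apart in every library. Their log2 fold changes were 1.87, 2.55 and -1.61, with edgeR adjusted p-values of 0.198, 0.207 and 0.207. DESeq2 gave adjusted p-values of 0.0036, 0.0055 and 0.0011 for the same genes.

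Col18a1 and Col8a1 varied widely. Col18a1, the source of endostatin, was at 21.6, 43.7 and 102 CPM in PRMK and at 2.56, 4.04 and 314 CPM in PRM. Its log2 fold change was -0.94 with all libraries and 4.08 without PRM library 6 (edgeR adjusted p = 0.133). Col8a1, a short-chain collagen of endothelial and corneal matrices, was at 169, 64.3 and 273 CPM in PRMK and at 69.9, 0.504 and 1.16 CPM in PRM. PRM library 4 fell within the PRMK range for Col8a1, and without that library the log2 fold change was 7.66 with an adjusted p of 0.0394. Leaving it out removes the only overlap, so that fit cannot show that the groups separate. The 5 endothelial markers summed to 4.26 CPM in PRM library 5, against 19.7 to 201 CPM elsewhere. Against PRMK and PRM library 4, most of that gap lay in Vwf, at 0.0561 CPM in PRM library 5. PRM library 6 held 2.58 CPM of Vwf and 13.7 CPM of Egfl7, another of these markers. Egfl7 was at 3.48 CPM in PRM library 5 and at 0.563 to 2.04 CPM in PRMK. The part of these markers in the Col8a1 values was not tested.

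**Figure D2:**
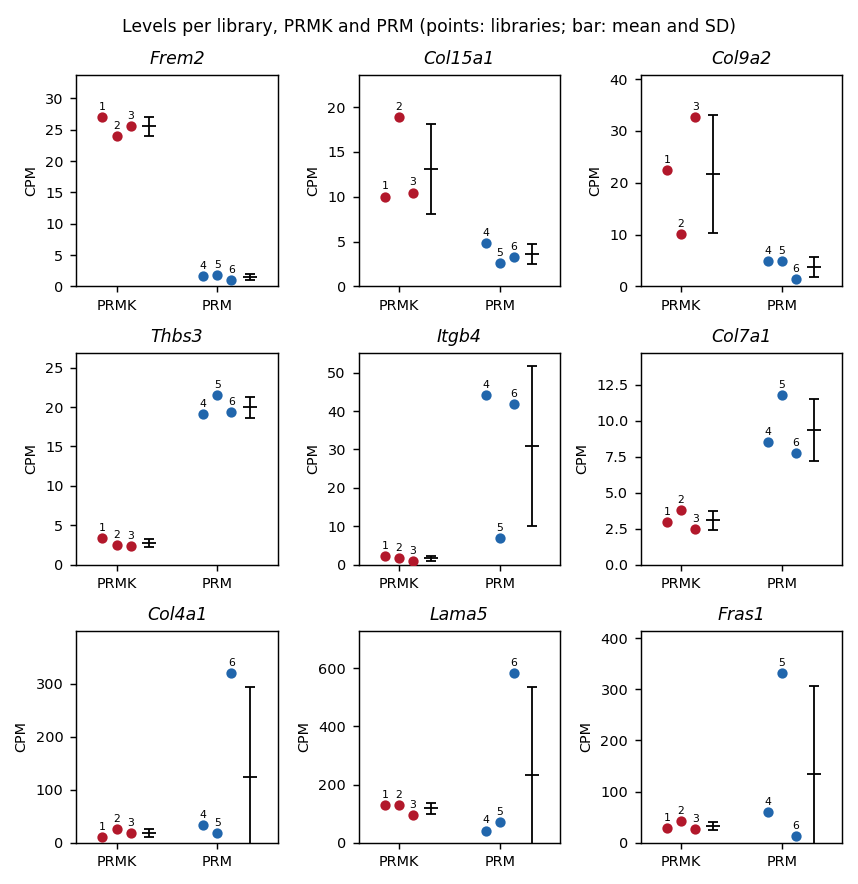
Level in CPM of 9 members in each PRMK (red, 1 to 3) and PRM (blue, 4 to 6) library, with black bars for the mean and SD cut at 0. Frem2 and Thbs3 form tight separate groups, the 6 genes of the top rows do not overlap, and Col4a1, Lama5 and Fras1 each have 1 PRM library far above the rest.

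Fibrillar collagens varied widely between libraries, as fibroblast markers did. Col3a1, the chain of reticular fibres, was at 11.5, 60.2 and 9.19 CPM in PRMK and at 87.1, 0 and 120 CPM in PRM. A count of 0 in PRM library 5 allows a level of up to 0.168 CPM, a limit that covers counting error only. Col1a1 was at 11.5, 36.8 and 7.61 CPM in PRMK and at 117, 0.112 and 6.77 CPM in PRM. In PRMK, both collagens and the fibroblast markers, which summed to 102, 207 and 84.8 CPM, were highest in library 2. Within PRM the markers summed to 91.7, 6.45 and 262 CPM in libraries 4 to 6, and Gsn alone gave 179 CPM of the last sum. Pdgfra, Lum, Pi16, Clec3b and Mfap5 were higher in PRM library 4 than in PRM library 6. Of the 11 fibrillar chains tested, 5 had a log2 fold change above 0, the median was -0.21, and none had an unadjusted edgeR p under 0.05.

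Many members were nearly absent from PRM library 5. Taking genes under 1 CPM there and at 4 CPM or more in each of the other 5 libraries, limits set after the values were seen, gave 12 members (15.8%) and 0.977% of all genes. They were Col1a1, Col1a2, Col3a1, Col5a1, Col5a2, Col5a3, Col6a3, Itga5, Itgb2, Itgb3, Sparc and Thbs2. Conversely, 21 members (27.6%) and 5.49% of all genes were more than 2 times as high in PRM library 6 as in any other library. These included Itga5, the fibronectin receptor subunit, at 61.6 CPM, Col5a1 at 107 CPM and the elastic fibre protein gene Fbln2 at 193 CPM.

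Fibronectin and fibrillin 1 were both lowest in PRM library 5. Fn1 was at 316, 546 and 358 CPM in PRMK and at 178, 23.7 and 673 CPM in PRM. Fbn1, the main microfibril protein, was at 169, 154 and 174 CPM in PRMK and at 267, 28.4 and 137 CPM in PRM. Both overlapped between groups. Fbn2, a second fibrillin, differed, at 3.06, 2.04 and 24.4 CPM in PRMK and at 2.88, 22.8 and 51.3 CPM in PRM. The Fn1 log2 fold change was 0.48 (edgeR adjusted p = 0.831) with all libraries and near 0, at -0.06, without PRM library 5. It rose most without PRM library 6, the highest library at 673 CPM.

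Among the integrins that bind RGD or other ligands, Itgb1 encodes beta1, the partner of most alpha chains. It was at 264, 316 and 280 CPM in PRMK and at 261, 369 and 734 CPM in PRM. Itgb8, an activator of latent TGF-beta, was at 10.3, 13.1 and 11.96 CPM in PRMK and at 3.45, 0.0561 and 1.07 CPM in PRM, without overlap. Its log2 fold change was 2.93 (SE 1.17), with an edgeR adjusted p of 0.281 and a DESeq2 adjusted p of 0.0703. Itga9, a receptor of tenascin C and other ligands, was at 5.15, 3.86 and 15.6 CPM in PRMK and at 4.70, 0.561 and 0.801 CPM in PRM. Library 4 alone kept the groups from separating there.

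The 6 leukocyte integrins did not all vary alike. Itgb2, the beta2 subunit of leukocytes, was at 40.3, 37.5 and 51.8 CPM in PRMK and at 26.7, 0 and 10.6 CPM in PRM, and Itgam was at 10.9 to 18.5 CPM and at 12.1, 0 and 2.49 CPM. The 6 macrophage and leukocyte markers summed to 480, 532 and 701 CPM in PRMK and to 504, 6.05 and 93.1 CPM in PRM. The order of the PRM libraries was the same for both genes and for the summed markers, and for Itgax. Itgal, Itgae and Itgb7 had other orders, with Itgal at 9.36, 1.23 and 0.534 CPM in PRM libraries 4 to 6. Itgae, which pairs with beta7 on mucosal T cells, was lower in PRMK, at 1.11 to 1.46 CPM against 1.602 to 3.24 CPM in PRM. None of the 6 leukocyte integrins tested had an unadjusted edgeR p under 0.05.

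Over all 76 tested members the median log2 fold change was -0.65, against -0.02 over all genes, and 29 members were above 0. Without PRM library 6 the median was 0.42 and 49 were above 0, with 21 members going from below to above 0 and 1 the other way. The sign of the members as a set therefore rested on that library. Frem2, Thbs3, Itgb4 and Col9a2 had log2 fold changes of 3.88, -2.89, -4.01 and 2.17 without it, close to those with all libraries.

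**Figure D3:**
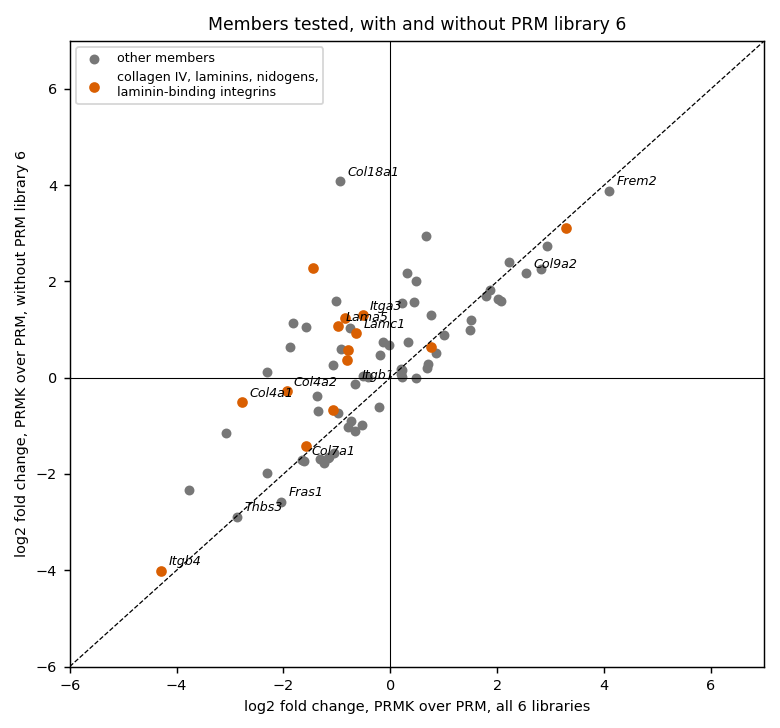
Log2 fold change of PRMK over PRM for the 76 tested members with all 6 libraries (horizontal axis) and without PRM library 6 (vertical axis), with basement membrane genes and laminin-binding integrins in orange and equality dashed. Frem2, Thbs3 and Itgb4 lie near the dashed line, while Lama5, Lamc1 and Col18a1 lie below 0 on the horizontal axis and above 0 on the vertical axis.

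Other genes of matrix assembly and turnover were read from lists. Of 23 tested genes of collagen processing and crosslinking, 0 were higher and 1 was lower in PRMK at an unadjusted edgeR p under 0.05. Of 26 matrix proteases and inhibitors, 3 were higher and 1 lower. Of 17 proteoglycans, 1 was higher and 2 lower, of 19 adhesome genes 0 and 2, and of 7 other receptors none. No gene of any list passed the adjusted edgeR threshold, and all genes together gave 7.03% higher and 10.1% lower at the unadjusted one.

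The lowest p on these lists belonged to Gpc4, a cell surface heparan sulfate proteoglycan. Gpc4 was at 1.69, 2.51 and 3.17 CPM in PRMK and at 11.5, 21.5 and 32.1 CPM in PRM, a log2 fold change of -3.14 with an edgeR adjusted p of 0.190 and a DESeq2 adjusted p of 2e-06. Mmp15, a membrane-anchored protease, was at 192, 187 and 128 CPM in PRMK and at 97.8, 57.3 and 36.3 CPM in PRM. The collagen prolyl hydroxylase subunit P4ha2 was at 2.61, 4.80 and 8.64 CPM and at 13.9, 12.1 and 25.1 CPM. Lims1, an adaptor at integrin adhesions, was at 71.4 to 84.3 CPM in PRMK and 110 to 142 CPM in PRM. The groups did not overlap for any of these 4 genes. Other genes named by rule were Plod3 and Cspg5, higher in every PRMK library, and Zyx, lower in every one. From the list of other matrix receptors came Bcam, higher, and Rpsa, lower. All of these had edgeR adjusted p-values of 0.252 to 0.328.

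The second RNA comparison asked what a guide against Meis2, a homeobox gene, did in PRMK cells. Of the 103 members, 64 passed the filter on low counts and were tested, as were 16260 of all 51912 genes. Among the genes under the filter, Col1a1, Col1a2 and Col3a1 reached at most 10, 2 and 15 counts in any library, Itgb2 at most 2, and Itgam had 0 in all 6. Macrophage and leukocyte markers summed to 2.95 to 5.40 CPM and fibroblast markers to 12.2 to 17.5 CPM, while neuroendocrine markers summed to 2810 to 3140 CPM. Members varied little within groups, with a median highest-to-lowest ratio of 1.27-fold in sgMeis2 and 1.18-fold in sgScramble. Library 3 of sgMeis2 stood apart, being the highest of 6 for 36.5% and the lowest for 37.5% of all genes.

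The edgeR quasi-likelihood test called 0 of the 64 members and 0% of 16260 genes. At an unadjusted p under 0.05 it held 7 members (10.9%), 1 higher and 6 lower in sgMeis2, against 4.67% of all genes (2.2% higher, 2.47% lower). DESeq2 called 2 members (3.12%), both lower, against 0.135% of all genes (0.0185% higher, 0.117% lower), which are 22 genes in number. The edgeR likelihood ratio test also called 2 members, both lower, against 0.191% of all genes (0.0246% higher, 0.166% lower). The groups did not overlap for 15 members (23.4%), 4 higher and 11 lower, against 16% of all genes (8.12% and 7.92%). The authors' deposited table gives an adjusted p under 0.05 for 2 of its 103 members and 18 of its 51912 genes.

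Svep1 and Sparc were the 2 members in the DESeq2 calls and in the authors' deposited table. Svep1, at chr4:58042796-58206596, was at 1.42, 1.51 and 1.50 CPM in sgMeis2 and at 3.96, 3.70 and 2.73 CPM in sgScramble. Sparc, at chr11:55394159-55420080, was at 7.33, 7.78 and 8.37 CPM in sgMeis2 and at 13.7, 11.5 and 13.2 CPM in sgScramble. In both, each sgMeis2 library was below each sgScramble library. The log2 fold change of Svep1 was -1.22 (SE 0.211), with an edgeR adjusted p of 0.677 and a DESeq2 adjusted p of 0.0205. That of Sparc was -0.71 (SE 0.123), with adjusted p-values of 0.677 and 0.0104.

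Laminin, nidogen and fibronectin genes followed by p. Lama4 was at 3.69, 4.07 and 2.95 CPM in sgMeis2 and at 6.63, 5.69 and 5.66 CPM in sgScramble. Fn1 was at 13.7, 14.9 and 8.10 CPM and at 21.4, 22.2 and 19.95 CPM. Nid1 was at 0.738, 0.503 and 0.375 CPM and at 1.06, 1.42 and 0.950 CPM. All 3 were lower in every sgMeis2 library, with log2 fold changes of -0.74, -0.79 and -1.07 and an edgeR adjusted p of 0.754 each. Without sgMeis2 library 3, edgeR called Fn1 (log2 fold change -0.57, adjusted p = 0.0127) and Sparc (-0.76, adjusted p = 0.0123), among 46 genes. The 10 fibroblast markers, of which 5 were tested, all 5 below 0, summed to 12.2 to 12.4 CPM in sgMeis2 and 14.1 to 17.5 CPM in sgScramble. The 5 epithelial markers tested were also all below 0, and of 9 neuroendocrine markers 5 were above 0 and 4 below. The part of these markers in these results was not tested.

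Fewer members were higher. Col11a2, a chain of cartilage fibrils, was at 11.4, 9.01 and 16.1 CPM in sgMeis2 and at 7.36, 7.68 and 6.44 CPM in sgScramble, a log2 fold change of 0.77. Col7a1 was at 5.64, 5.31 and 12.3 CPM and at 4.92, 4.65 and 3.84 CPM, with library 3 of sgMeis2 well above the rest. Itga7 was lower, at 3.53, 3.29 and 3.65 CPM and at 5.15, 4.46 and 4.38 CPM. None of the 3 passed the adjusted threshold in edgeR or DESeq2.

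**Figure D4:**
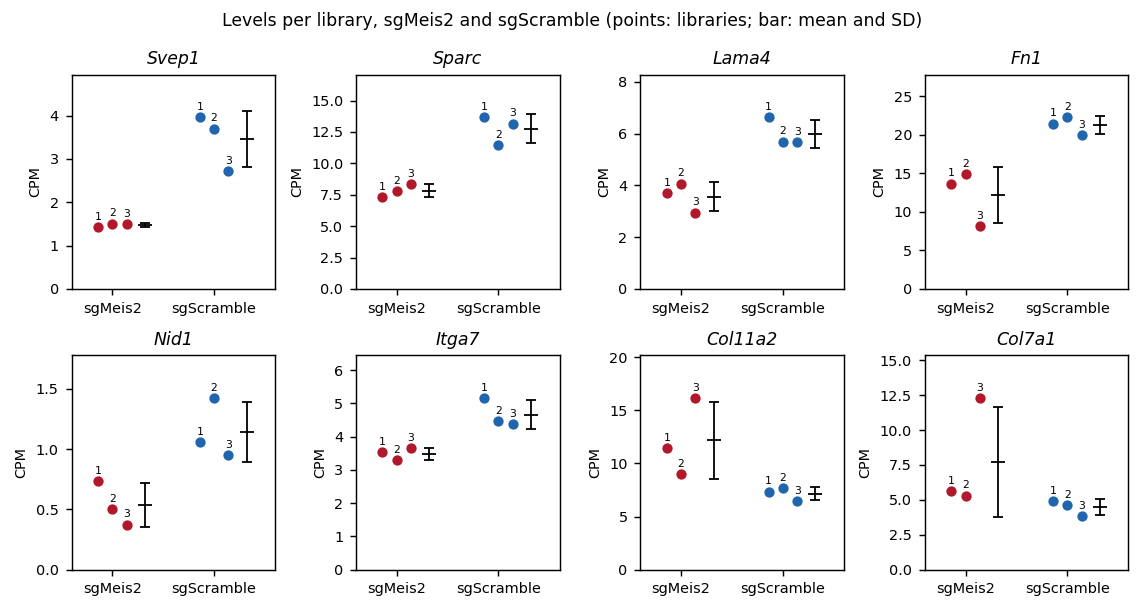
Level in CPM of the 8 members of lowest edgeR p in each sgMeis2 (red) and sgScramble (blue) library, numbered 1 to 3, with black bars for the mean and SD. Svep1 and Sparc are lower in all 3 sgMeis2 libraries, while the Col7a1 mean in sgMeis2 is carried by library 3.

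The members of highest CPM, a value not scaled to gene length, mostly did not separate in this way. Itgb1 was at 164, 169 and 205 CPM in sgMeis2 and at 164, 173 and 170 CPM in sgScramble. Lama5 was at 122, 121 and 129 CPM and at 123, 124 and 123 CPM, with a log2 fold change of 0.01 (SE 0.068). Lamc1 was at 94.3 to 104 CPM and at 98.6 to 106 CPM, and Itga6, the alpha subunit that pairs with beta1 or beta4 to bind laminin, at 63.9 to 74.0 CPM and at 64.6 to 69.6 CPM. Itga3, Fbn1, Fbln1 and Col18a1 overlapped as well. Col8a1 and Thbs4 were lower in every sgMeis2 library, at 22.4 to 23.9 against 25.2 to 26.8 CPM and at 20.5 to 23.2 against 24.2 to 26.9 CPM, with an edgeR adjusted p of 0.754 for both.

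Apart from Lama4, Nid1 and Svep1, the laminin, nidogen, collagen IV and Fraser genes tested overlapped between groups. Frem2 was at 6.75, 5.90 and 6.97 CPM in sgMeis2 and at 5.98, 5.83 and 5.70 CPM in sgScramble, and Fras1 was at 15.5 to 19.0 CPM and at 16.3 to 16.7 CPM. Frem1, Lamb1, Lamb2, Nid2, Col4a1, Col4a2, Col4a4 and Col4a5 overlapped between groups, with edgeR adjusted p-values from 0.754 up. The median log2 fold change over the 64 members was -0.05, against 0.00 over all genes.

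On the lists of other matrix genes in this comparison, Pcolce, which speeds the trimming of procollagen, was at 7.38, 8.32 and 9.28 CPM in sgMeis2 and at 14.8, 14.4 and 14.7 CPM in sgScramble. Its log2 fold change was -0.82 (SE 0.121), with an edgeR adjusted p of 0.677 and a DESeq2 adjusted p of 0.00046. At an unadjusted edgeR p under 0.05, the 19 tested genes of collagen processing held 2 higher and 3 lower, the 16 proteases and inhibitors 0 and 2, and the 16 proteoglycans 1 and 4. The 18 adhesome genes held 0 and 1, and the 8 other receptors 0 and 2. The small proteoglycan Bgn, at 6.49, 5.76 and 2.68 CPM against 10.8, 10.95 and 8.80 CPM, and the hyaluronan receptor Cd44, at 4.17, 4.44 and 3.59 CPM against 6.35, 6.64 and 6.07 CPM, were lower in every sgMeis2 library. So were Lox, Timp2, Adamts4, Hspg2, Tns3 and Cd47, while Fermt1 overlapped. Of all genes tested, 7.92% were lower in every sgMeis2 library.

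Promoter marks were read for the 74 members with a start in the reference annotation (GRCm38.p6), by deposited peaks within 1 kb of the start. H3K4me3 lay on 28.4% to 41.9% of members per lung library, against 86.9% to 89.1% of the 10959 tested genes with a start. Among the 55 members that were also tested in PRMK and PRM the share was 36.4% to 49.1%. H3K4me2 lay on 44.6% to 60.8% of members, against 85.2% to 91.9%. H3K4me1, a mark of enhancers and promoter flanks, lay on 10.8% to 28.4% in lung, near the 15.0% to 28.6% of tested genes. A group here holds 2 libraries, so no test of groups was made.

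Few members differed between genotypes in both libraries. H3K4me3 covered 23 members in both PRM lists and 21 in both PRMK lists, with 17 in all 4 lists and 38 in none. Col11a2 and Itgav had H3K4me3 in both PRMK lists only (2.70% of members, 0.365% of tested genes), and Col15a1 in both PRM lists only (1.35%, against 0.666%). In the PRMK and PRM RNA libraries Col15a1 was higher in PRMK, the opposite direction to this mark. The PRMK H3K4me3 samples, however, list a Meis2 or a scrambled guide. In sgMeis2 and sgScramble cells Col15a1 was at 0.237 to 0.595 CPM, under the filter on low counts. Mark and RNA were thus not read in like cells, and no direction is drawn from them. The promoters of Frem2, Thbs3, Col9a2 and Itgb8 carried H3K4me3 in all 4 lists, and their RNA separated PRMK from PRM. In sgMeis2 and sgScramble cells these genes were at 5.70 to 6.97, 3.86 to 6.22, 1.99 to 2.90 and 1.11 to 2.81 CPM. Those levels were scaled separately from the PRMK and PRM libraries, so they can be set beside them only roughly. They lay within the PRM range for Col9a2 and Itgb8 and outside it for Frem2 and Thbs3. For each of these genes they lay outside the PRMK range, although sgScramble cells are PRMK cells. The promoters of Col7a1 and of Svep1, Sparc and Col3a1, whose CpG-poor sequences are shown above, carried H3K4me3 in none. H3K4me2 was in both PRMK lists only for Col5a3 and Itgav (2.70%, against 1.57% of tested genes), and in both PRM lists only for 0 members (against 0.128%). H3K4me1 was in both PRMK lists only for Col18a1, Fbn1, Frem1, Lamb3, Nid1 and Thbs3 (8.11%, against 3.48%), and in both PRM lists only for Col6a5 (1.35%, against 2.28%).

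**Figure D5:**
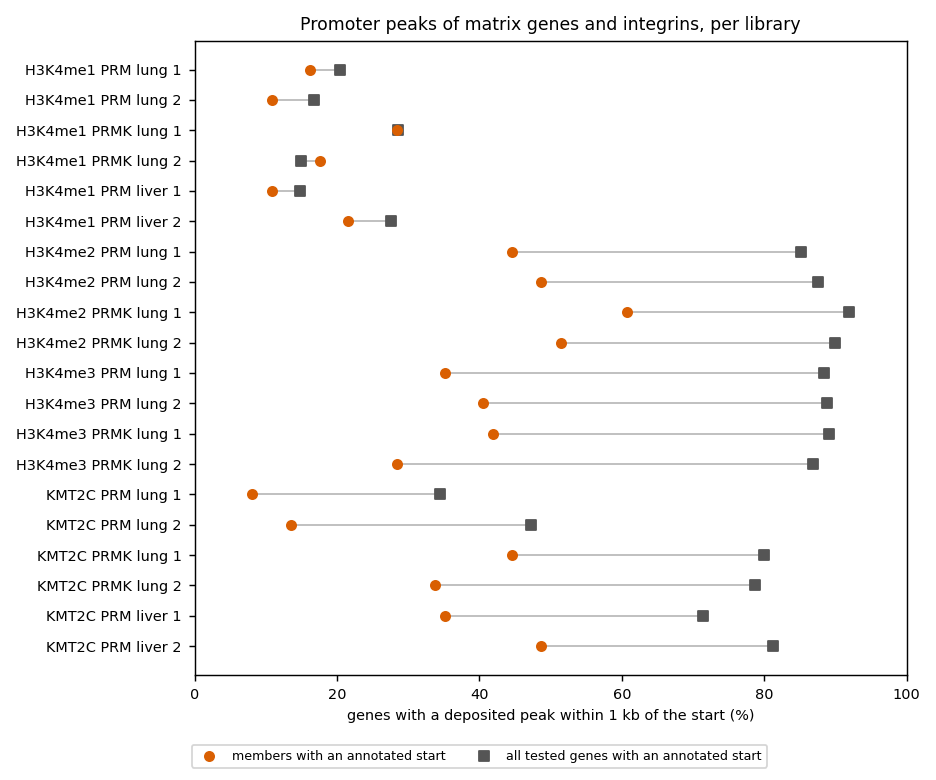
Share of genes with a deposited CUT&Tag peak within 1 kb of the start, per library, for the 74 members (orange circles) and the 10959 tested genes (grey squares). Members lie far to the left of tested genes for H3K4me3, H3K4me2 and KMT2C in every library, and close to them for H3K4me1.

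KMT2C, the enzyme targeted in PRMK, had far longer peak lists in lung PRMK (187682 and 134561 peaks) than in lung PRM (9949 and 16681). Its peaks lay on 44.6% and 33.8% of member promoters in PRMK and on 8.11% and 13.5% in PRM, against 78.7% to 80.0% and 34.5% to 47.3% of tested genes. Frem2, Col7a1, Itgb1, Itgb8, Itga3, Itga5, Itga10, Itgav, Lamb1 and Lamb3 had a peak in both PRMK lists and neither PRM list (13.5% of members, 25.8% of tested genes). Col27a1 had the reverse (1.35%, against 0.0821%). Since lists of such unequal length count differently, no change in binding is read from these shares. ATAC lists held 593 to 64596 peaks in lung and are not compared.

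H3K4me1 around whole genes was read as the length covered by peaks in the gene and 10 kb on either side. Both PRMK libraries had more cover than both PRM libraries for 17 members (16.5%, against 20.1% of 13768 tested genes) and less for 26 (25.2%, against 17.1%). These member shares are over all 103 members, of which 76 were tested, so the 2 sets are not alike. Among the 26 were untested members such as Col13a1, Col4a3 and Lama1. PRMK library 2 covered 77.4 Mb in all, with peaks of 2.1 kb on average, against 111.4 to 147.5 Mb and 3.87 to 4.10 kb in the other 3 lung libraries. The part of this shorter cover in the count of 26 was not tested. Itga9 had 67.6 and 41.6 kb covered in PRMK and 12.51 and 13.95 kb in PRM, and Thbs3 had 17.4 and 13.8 kb against 8.26 and 9.36 kb. Frem2 went the other way, with 24.3 and 13.8 kb in PRMK and 29.0 and 30.0 kb in PRM, and Col23a1 had 8 and 4.05 kb against 31.8 and 31.2 kb. Thbs3 thus had more H3K4me1 cover and less RNA in PRMK, and Frem2 less cover and more RNA. Other members had cover and RNA in the same direction. Itgb4 had 6.56 and 4.61 kb covered in PRMK and 9.64 and 8.06 kb in PRM, with less RNA in PRMK. Col8a1 had 27.5 and 11.8 kb against 5.54 and 4.41 kb, with a log2 fold change of 2.82 but overlapping RNA levels. The relation of cover to RNA over the members was not tested.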

How the data were processed

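RNA was measured in 12 libraries and peaks in 26. The submitters' processing notes name STAR 2.6.0a and GRCm38 for RNA, Bowtie2 2.2.1 and mm10 for ATAC, with no peak caller, and Bowtie2, SEACR and mm10 for CUT&Tag. The deposited tables hold raw counts per gene, with log2 fold changes, p-values and adjusted p-values by the authors. The deposited ATAC lists carry a score per peak and the deposited CUT&Tag lists the total signal per peak, which served only to keep the upper part (0.5) of the lists in an alternative.

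Counts were tested with edgeR 4.0.16 in R 4.3.3 (TMM, filterByExpr, quasi-likelihood test, Benjamini-Hochberg over all genes tested, threshold 0.05), separately per table. DESeq2 1.42.0, the edgeR likelihood ratio test, RLE factors, no filter, each library left out and a replicate block were alternatives. A count of 0 allows up to 3 counts. Peaks counted with 1 bp of overlap in a window of 2001 bases. Scripts were tested on simulated data. Members and lists were chosen with earlier results of these data known. Genes were named by rule: the 12 of lowest p, the 10 of highest CPM, the laminin, nidogen, collagen IV and Fraser genes, and 2 of each other list. Some items that the rule names are not reported here. Columns headed TPM did not hold TPM as deposited (their sums were far from those of TPM) and were not used.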

Additional observations from a re-analysis of the deposited data

How the results depend on the processing

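In PRMK versus PRM, DESeq2 called 1218 genes and 6 members (3 higher, 3 lower), the edgeR likelihood ratio test 454 genes and 4 members (2 and 2), and edgeR's quasi-likelihood test with each library left out 0 to 796 genes and 0 to 6 members (0 to 4 higher, 0 to 2 lower). The calls under that last setting came without PRM library 4, for Col8a1, Frem2, Itga2, Itgal, Thbs3 and Thbs4. Members at an unadjusted p under 0.05 numbered 15 with DESeq2 (of all genes, 3200) and 6 to 21 with each library left out (of all genes, 997 to 4282), and the median log2 fold change of members ran from -0.79 to 0.42. Single genes changed sign with 1 library left out: Fn1 ran from -0.06 to 2.01, Lamc1 from -1.13 to 0.92, Lama5 from -1.54 to 1.07 and Col18a1 from -1.80 to 4.08. RLE size factors, no filter on low counts, and matching by the reference symbol each gave 0 called members. No paired analysis was possible in PRMK versus PRM because the columns are numbered 1 to 3 and 4 to 6, and the PRM columns could not be tied to the titles, which are numbered 3 to 5.

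In sgMeis2 versus sgScramble, DESeq2 called 22 genes and 2 members (both lower), the likelihood ratio test 31 genes and 2 members (both lower), and the fits with a library left out 0 to 46 genes and 0 to 2 members (0 to 2 lower), the calls coming without sgMeis2 library 3. Members at an unadjusted p under 0.05 ran from 6 to 12 (of all genes, 371 to 1689), the median of members from -0.10 to -0.02, Itgb1 from -0.02 to 0.15 and Fras1 from -0.03 to 0.12. With the replicate number as a block, edgeR called 0 genes and 0 members, and the block changed no call. Deviations of same-numbered libraries correlated at 0.01, 0.00 and 0.03, and not every library correlated best with its own number, so the numbers were not taken to pair the samples.

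With the 50% of peaks of highest value in each list, H3K4me3 lay on 9 members in both PRM lists, 5 in both PRMK lists, 4 in all 4 and 60 in none, and H3K4me1 on 5, 5 and 2 in all 4. A window of 2.5 kb gave 8 members with H3K4me1 in all 4 lists, against 5 with the narrower window. Depth limits low genes: 3 counts stand for 0.119 to 0.267 CPM.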
